A study of Macaca mulatta with 6 samples.

Results

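The genes described here encode complement proteins that tissues outside the liver can make for themselves: the proteases C1R and C1S, the lectin pathway protease MASP1, the components C2, C3, CFB and CFD, and the soluble inhibitors SERPING1 and CFI. They were chosen by symbol from the table of transcript levels, and 7 of the 9 were present among its 24932 gene symbols. C3 and CFB had no row under those symbols and were not analysed here. RNA came from RF/6A, a rhesus macaque cell line labelled as choroidal endothelial, grown to confluence on porous inserts and then kept for 4 hours in 50% human serum. The 3 control libraries received heat-inactivated serum, in which complement no longer works, and the 3 treated libraries received normal serum, whose active complement can form the membrane attack complex. The only contrast is heating of the serum, so active complement cannot be told apart from other heat-sensitive serum factors. The labels do not state that replicates were grown as separate cultures, and the p-values therefore measure only the spread among these libraries, possibly a technical one.

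Complement is a cascade of plasma proteins in which each protease cuts and activates the next. In the classical pathway C1q binds a target and switches on C1r, which cleaves C1s, which in turn cleaves C4 and C2. In the lectin pathway MASP proteins take the place of C1r and C1s, and in the alternative pathway factor D (CFD) cleaves factor B (CFB) bound to C3b. C1 inhibitor (SERPING1) inactivates C1r, C1s and some of the MASP proteases, and factor I (CFI) cuts C3b and C4b with the help of cofactors. The liver makes most of these proteins, but fibroblasts, endothelial cells and macrophages also transcribe some of them.

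Levels are FPKM, fragments per kilobase of transcript scaled to the size of the library, summed over the transcripts of each symbol. Between 11589 and 11837 genes per library reached 1 FPKM. In replicates 2 and 3 a single fragment on a transcript of 1000 bases was worth between 0.0692 and 0.0839 FPKM. The replicate 1 libraries of both treatments stood apart from the other 4 on the second principal component (13.2% of the variance), while the first (61.1%) separated the treatments. Member values within replicates 2 and 3 alone are therefore given below beside the pooled ones.

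In normal serum the messages of 6 of the 7 complement genes were lower and none was higher. C1R, C1S, C2 and CFD, which encode proteases of the classical and alternative pathways, fell by between 39.1% and 50.8% of their mean control FPKM. The inhibitors SERPING1 and CFI fell by 34.6% and 38.6%, and MASP1 was not past the threshold. A change was counted where the adjusted p of limma on log2(FPKM + 1) was below 0.05. By the same rule 54.0% of the 11818 genes tested changed, 26.1% lower and 27.8% higher, so a fall was common in these libraries. The groups did not overlap for those 6 genes, with normal serum lower. Over all genes tested the groups did not overlap in 62.6%, lower in 30.5% and higher in 32.1%. The median log2 change was -0.71 over the 7 members and 0.01 over all genes tested. Fewer cells that make a message and less message per cell cannot be told apart in bulk RNA.

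**Figure D1:**
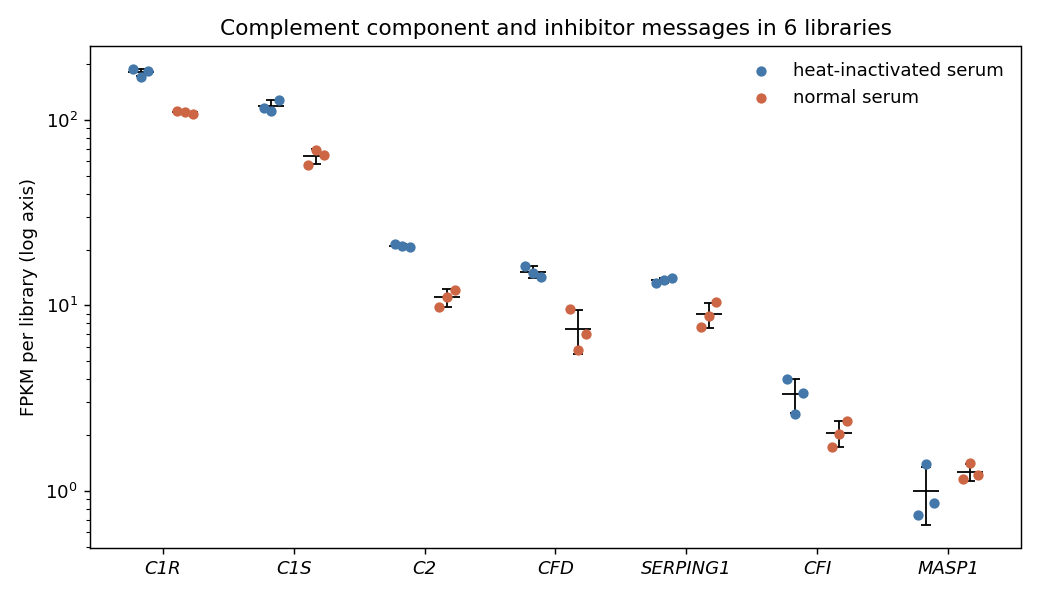
FPKM of each complement gene in each library (points, log axis), with the mean and SD of 3 libraries per treatment (black bars). The points of the treatments are separate for every gene but MASP1, and levels run from about 180 FPKM for C1R in the control down to about 1.00 FPKM for MASP1.

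C1R, the protease that starts the classical cascade, was the most abundant member. It stood at 187, 171 and 183 FPKM in the control libraries (replicates 1 to 3) and at 112, 109.6 and 108 FPKM in normal serum. All normal serum libraries were below all controls, and the treated values lay within a narrow band. The mean went from 180 ± 8.25 to 110 ± 1.94 FPKM (SD, n = 3), a log2 change of -0.71 with a 95% confidence interval from -0.84 to -0.58 (limma, adjusted p = 7.12e-05). In the control, 95.5% of tested genes had a lower level than C1R.

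C1S, the protease that C1r activates, was next at 116, 111 and 128 FPKM in the control and 57.2, 69.2 and 64.5 FPKM in normal serum. Again the groups were separate, and the lowest treated library was replicate 1. The mean of 119 ± 8.91 FPKM fell to 63.6 ± 6.05 FPKM, a log2 change of -0.89 (interval -1.10 to -0.68, limma adjusted p = 1.90e-04). Together C1R and C1S made up most of the summed complement message, C1R 51.1% ± 0.931 and C1S 33.6% ± 1.48 in the control, and 53.8% ± 2.07 and 31.1% ± 2.28 in normal serum.

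MASP1 encodes lectin pathway proteases, and alternative splicing of its message also yields MASP-3 and a shorter protein without protease activity. It was the lowest member, at 0.744, 1.39 and 0.865 FPKM in the control and 1.16, 1.42 and 1.21 FPKM in normal serum. The groups overlapped because control replicate 2 was as high as the treated libraries. Its log2 change was 0.19, with an interval from -0.17 to 0.55 that includes no change and a modest rise (limma, adjusted p = 0.331). The authors' deposited table, which tests transcripts one by one, gave a log2 change of 0.46 and a q-value of 0.0186 for its 3842-base transcript. That q-value did not earn the mark of passing in the authors' deposited table. In replicates 2 and 3 this transcript rested on about 73 and 38 fragments in the control and 78 and 79 in normal serum.

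C2, which supplies the protease of the classical C3 convertase once C1s has cut it, stood at 21.3, 21.0 and 20.5 FPKM in the control. In normal serum it was at 9.79, 11.2 and 12.1 FPKM, so the highest treated library was well below the lowest control. The mean fell from 20.9 ± 0.388 to 11.03 ± 1.18 FPKM (log2 change -0.87, interval -1.07 to -0.67, limma adjusted p = 1.69e-04). The table describes the protein of all 4 transcripts under this symbol only as uncharacterized. C2 and CFB are neighbours on chromosome 4 in the RefSeq gene table of the T2T-MMU8v2.0 assembly, with no protein-coding gene between them. Since CFB had no row of its own, transcripts of C2 and CFB cannot be told apart under the symbol C2.

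CFD encodes factor D, the protease that cleaves factor B. It had a single transcript, with 16.4, 15.0 and 14.1 FPKM in the control and 9.61, 5.72 and 7.05 FPKM in normal serum. In replicates 2 and 3 those values stood for about 199 and 163 fragments against 68 and 99. The treated libraries spread more widely than the controls but did not reach them. The mean of CFD fell from 15.2 ± 1.12 to 7.46 ± 1.98 FPKM (log2 change -0.96, interval -1.33 to -0.59, limma adjusted p = 0.00193). Of all genes tested, 3.16% had a lower log2 change.

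SERPING1, the gene of C1 inhibitor, stood at 13.3, 13.7 and 14.04 FPKM in the control and at 7.69, 8.72 and 10.4 FPKM in normal serum. Control libraries lay close together and above every treated library. The mean went from 13.7 ± 0.393 to 8.94 ± 1.38 FPKM (log2 change -0.57, interval -0.81 to -0.33, limma adjusted p = 0.00300).

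CFI, the gene of factor I, was low at 4.00, 2.60 and 3.39 FPKM in the control and 1.73, 2.03 and 2.37 FPKM in normal serum. The lowest control, replicate 2, was just above the highest treated library, replicate 3. In replicates 2 and 3 the values came from about 30 and 34 fragments in the control and 21 and 29 in normal serum. The mean went from 3.33 ± 0.703 to 2.04 ± 0.323 FPKM (log2 change -0.50, interval -0.85 to -0.15, limma adjusted p = 0.0239). This call was lost with control replicate 1 left out (adjusted p = 0.0729) and likewise control replicate 3 (adjusted p = 0.0664). It was also lost with normal serum replicate 1 left out (adjusted p = 0.0684) or its replicate 2 left out (adjusted p = 0.0576), and after quantile normalization (adjusted p = 0.0744). All its signal lay in an 873-base transcript, since a 711-base transcript on an unplaced scaffold was listed at 0 in all libraries.

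**Figure D2:**
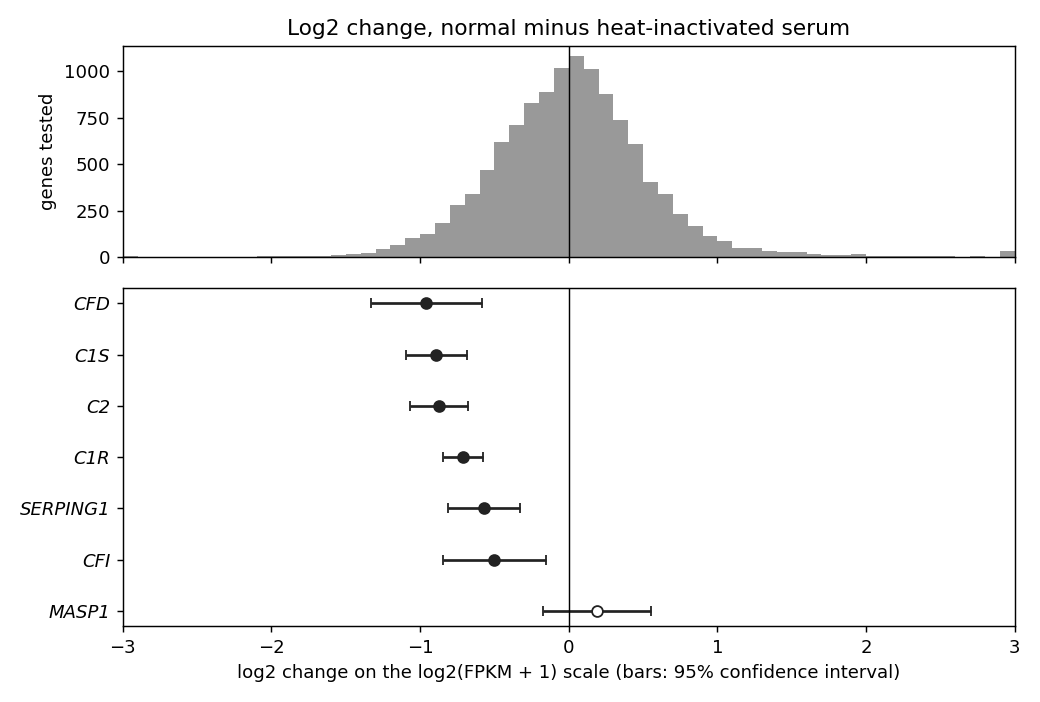
Log2 change in normal against heat-inactivated serum for all genes tested (top, histogram, with changes beyond 3 in size drawn in the outermost bins) and for each complement gene (bottom, points with 95% confidence intervals, open where not past the threshold). The intervals of 6 genes lie below 0, from CFD at -0.96 to CFI at -0.50, and that of MASP1 spans 0.

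Within replicates 2 and 3 alone, 5 of these falls passed the threshold by limma, where 21.7% of the genes tested were lower. The log2 changes there were -0.70 for C1R, -0.83 for C1S, -0.78 for C2, -1.08 for CFD and -0.50 for SERPING1, with adjusted p-values between 9.91e-04 and 0.0121. CFI stood at -0.31 there (adjusted p = 0.148) and MASP1 at 0.13 (adjusted p = 0.604). The replicate 1 libraries, 1 of each treatment, allow no test by themselves. With every library scaled to an equal FPKM total, the median of all genes moved from 0.01 to -0.12, the falls of the 6 genes became larger (-1.09 to -0.60) and MASP1 moved to 0.11. Higher genes then made up 34.7% of all calls in place of 51.6%.

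The order of levels was C1R, C1S, C2, CFD, SERPING1, CFI and MASP1 by mean FPKM in the control, and every control library gave the same order. In normal serum CFD and SERPING1 changed places in replicates 2 and 3, where their ranges overlapped (5.72 to 9.61 and 7.69 to 10.4 FPKM). CFD and C2 did not overlap in either treatment, the highest treated value of CFD, 9.61 FPKM, lying just below the lowest of C2, 9.79 FPKM. SERPING1 also overlapped C2 in normal serum, where its highest value of 10.4 FPKM was above the lowest of C2. The other neighbours in the order were separate. Summed over the 7 genes, message went from 353 ± 15.2 to 204 ± 4.64 FPKM, a fall of 42.2%. Without C1R and C1S the sum fell by 43.2%, from 54.1 ± 1.40 to 30.7 ± 2.18 FPKM. Groups were separate for both sums, with an exact two-sided permutation p of 0.10, the smallest that 3 against 3 allows.

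Ratios within a library set protease messages against that of the inhibitor SERPING1 or against each other. The ratio of C1S to SERPING1 was 8.79, 8.11 and 9.15 in the control and 7.44, 7.93 and 6.20 in normal serum, lower in every treated library. The exact two-sided permutation p was 0.10, and 0.40 after adjustment over the 4 ratios compared. C1R to SERPING1 had overlapping values with means of 13.2 ± 0.820 and 12.5 ± 2.09 (exact permutation p = 0.70, adjusted p = 0.90). For C1R to C1S the means were 1.52 ± 0.0916 and 1.74 ± 0.194 (exact permutation p = 0.20, adjusted p = 0.40). The ratio of C2 to C1S stood at 0.177 ± 0.0154 and 0.173 ± 0.0136 (exact permutation p = 0.90, adjusted p = 0.90). With 3 libraries per treatment no ratio could have passed the threshold.

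Transcripts of one gene were not all alike. A single transcript of 2096 bases carried 99.8% of C1R in both treatments, and the authors' deposited table gives it a log2 change of -0.72 and a q-value of 2.23e-04. For C1S the 2757-base transcript carried 95.01% in the control and 92.1% in normal serum, while an 840-base transcript varied between 1.93 and 9.89 FPKM with overlapping groups. In C2 the 2598-base transcript fell from 19.8 ± 0.960 to 8.25 ± 0.883 FPKM, which the authors' deposited table gives as -1.26 on the log2 scale with a q-value of 2.23e-04.

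An 1847-base C2 transcript was at 0, 0.570 and 0.00281 FPKM in the control and at 0.512, 3.55 and 2.35 FPKM in normal serum. Its groups overlapped, and its q-value in the authors' deposited table was 0.300. It made up 19.4% of the C2 message in normal serum against 0.912% in the control. With each gene represented by its highest transcript alone, the log2 change of C2 was -1.17 in place of -0.87.

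SERPING1 was split between an 1862-base and a 1264-base transcript in proportions that changed from library to library. The longer was at 13.3, 8.37 and 11.01 FPKM in the control and 7.23, 6.47 and 5.43 FPKM in normal serum. The shorter was at 7.48e-04, 4.92 and 3.03 FPKM in the control and 0.455, 2.25 and 4.99 FPKM in normal serum, with overlapping groups. In the control the sum over all SERPING1 transcripts varied less (SD 0.393 FPKM) than the longer transcript by itself (SD 2.44 FPKM). The authors' deposited table gives the longer a log2 change of -0.77 with a q-value of 0.00187, above the values it marks as passing, and the shorter -0.048 with a q-value of 0.974. Among the authors' tested transcripts 12.1% were lower and marked as passing by q-value, and the leading transcripts of C1R, C1S, C2 and CFD were among them.

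**Figure D3:**
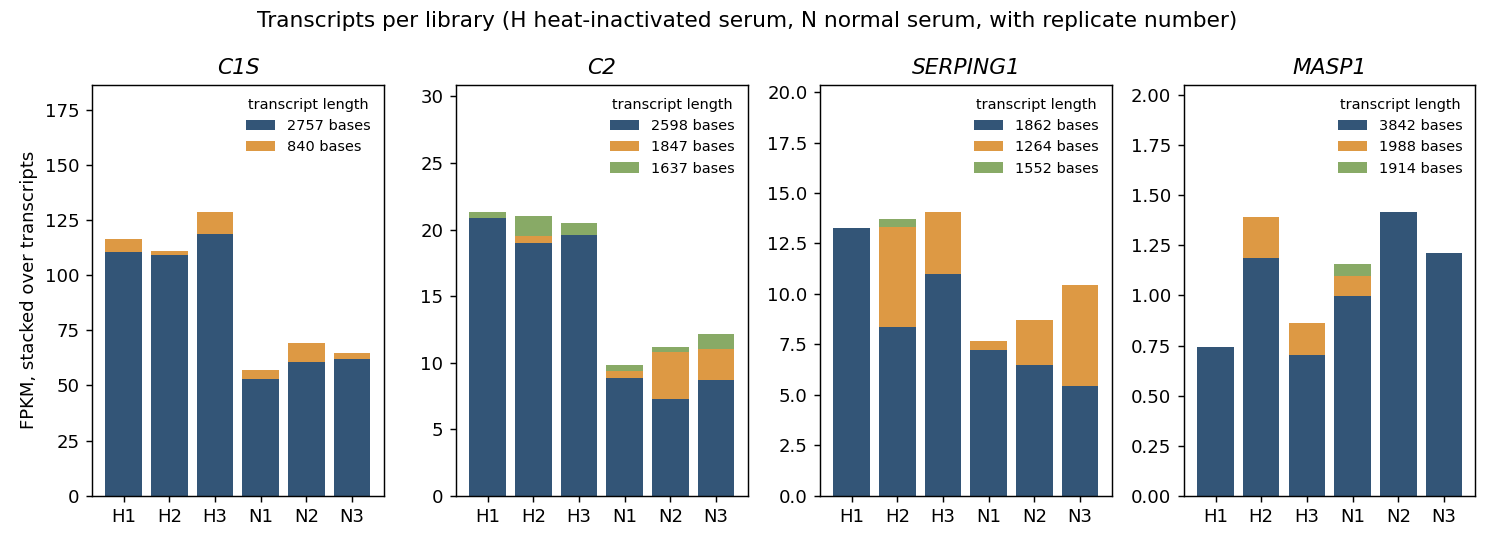
FPKM of each annotated transcript above 0, stacked per library, for C1S, C2, SERPING1 and MASP1 (H, heat-inactivated serum; N, normal serum; number, replicate; colours, transcript length). The 2598-base C2 transcript is lower in every normal serum library, and the split of SERPING1 between 1862 and 1264 bases differs from library to library.

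Other complement components were mostly near 0. Of 24 listed components and recognition molecules 20 were found, 6 of them at 0 in all libraries, and 3 reached a mean of 1 FPKM, of which 1 was lower and 0 higher. That gene was C1RL, a C1R-like protease gene, which went from 47.5 ± 1.85 to 22.8 ± 2.12 FPKM (log2 change -1.03, limma adjusted p = 6.32e-05). C1S, C1R and C1RL lie on chromosome 11 in the RefSeq table, C1S and C1R with no protein-coding gene between them and C1R and C1RL with 2. How fragments of these related genes were divided was not tested. PTX3, a pentraxin that binds C1q, stood at 212 ± 6.98 and 194 ± 30.8 FPKM, and CFP, properdin, at 2.17 ± 0.166 and 2.50 ± 0.329 FPKM, neither past the threshold (limma, adjusted p = 0.336 and 0.311). C1QC, which encodes a C1q chain, and MBL2, the mannose-binding lectin, were listed at 0, as were C6 and C8A of the terminal pathway. The other C1q chains and C4 were not analysed here.

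Of 14 other soluble regulators 10 were found and 2 could be tested. CLU, clusterin, which binds terminal complement complexes, went from 640 ± 28.7 to 756 ± 25.6 FPKM (log2 change 0.24, limma adjusted p = 0.0113). That direction flipped to -0.040 after quantile normalization (adjusted p = 0.581), and the call was also lost with equal FPKM totals (adjusted p = 0.394) and with only the highest transcript of each gene (adjusted p = 0.0889). The gene named CFHR4 in the table went from 4.93 ± 1.06 to 3.39 ± 0.551 FPKM (log2 change -0.43, limma adjusted p = 0.0447). Its call was lost with control replicate 1 (adjusted p = 0.116) or replicate 3 (adjusted p = 0.0681) left out, with normal serum replicate 1 left out (adjusted p = 0.110) or its replicate 2 left out (adjusted p = 0.122), and after quantile normalization (adjusted p = 0.125). How fragments were divided between CFHR4 and closely related genes was not tested.

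Of the membrane regulators and receptors 4 were higher and 1 lower among 6 tested of 14 found, with a median log2 change of 0.28. The shares over all genes tested were 27.8% higher and 26.1% lower. C1QBP, which encodes a C1q-binding protein, rose from 203 ± 12.7 to 363 ± 10.9 FPKM. CD46, a cofactor that lets factor I cut C3b on the cell surface, fell from 22.02 ± 1.47 to 16.2 ± 1.36 FPKM (limma, adjusted p = 0.00400). CD55, also a membrane regulator, rose from 19.8 ± 1.92 to 24.1 ± 1.87 FPKM (limma, adjusted p = 0.0353) and was not followed over the alternatives. For CD59 the means were 99.7 ± 4.83 and 103 ± 6.09 FPKM, not past the threshold (limma, adjusted p = 0.570). ITGB2, the beta chain of complement receptors 3 and 4, rose by 0.29 on the log2 scale, a call lost with equal FPKM totals (adjusted p = 0.183) and after quantile normalization (adjusted p = 0.182). C3AR1, the receptor for C3a, rose from 7.96 ± 0.944 to 10.7 ± 1.58 FPKM (limma, adjusted p = 0.0283). The C3AR1 call was lost with equal FPKM totals (adjusted p = 0.182), with control replicate 2 (adjusted p = 0.0815) or replicate 3 (adjusted p = 0.0896) left out, and with normal serum replicate 1 left out (adjusted p = 0.0702).

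Cytokine signals and factors known to control complement transcription went in both directions, with 6 higher and 10 lower among 21 tested of 25. Over all genes tested 27.8% were higher and 26.1% lower. Interferon gamma, interleukin 6 and interleukin 1 are textbook inducers of complement genes. IL6 rose from 163 ± 3.39 to 531 ± 27.7 FPKM and NFKB1, an NF-kappaB subunit, from 19.9 ± 1.57 to 40.0 ± 0.438 FPKM. IFNGR2, a chain of the interferon gamma receptor, fell from 112 ± 3.31 to 57.6 ± 3.30 FPKM and IL1B from 8.27 ± 1.49 to 0.971 ± 0.189 FPKM. IFNG was listed at 0 in every library. Of 20 other interferon-responsive genes 18 were found and 16 tested, 8 lower and 0 higher, with a median log2 change of -0.29. IFIT1, IFIT2, IFIT3 and MX1, antiviral effector genes, fell by between 1.67 and 2.12 on the log2 scale.

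SERPING1 belongs to the serpin family of protease inhibitors, and of the other secreted serine protease inhibitors 2 were higher and 3 lower among 8 tested of 15. Among all genes tested 27.8% were higher and 26.1% lower. SERPINE2, a thrombin inhibitor, rose from 981 ± 89.7 to 1377 ± 39.5 FPKM, a call lost after quantile normalization (adjusted p = 0.126). SERPINF1, which encodes pigment epithelium-derived factor, fell from 1030 ± 39.6 to 666 ± 42.4 FPKM, and TFPI, an inhibitor of tissue factor, from 80.2 ± 3.84 to 59.7 ± 2.69 FPKM.

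**Figure D4:**
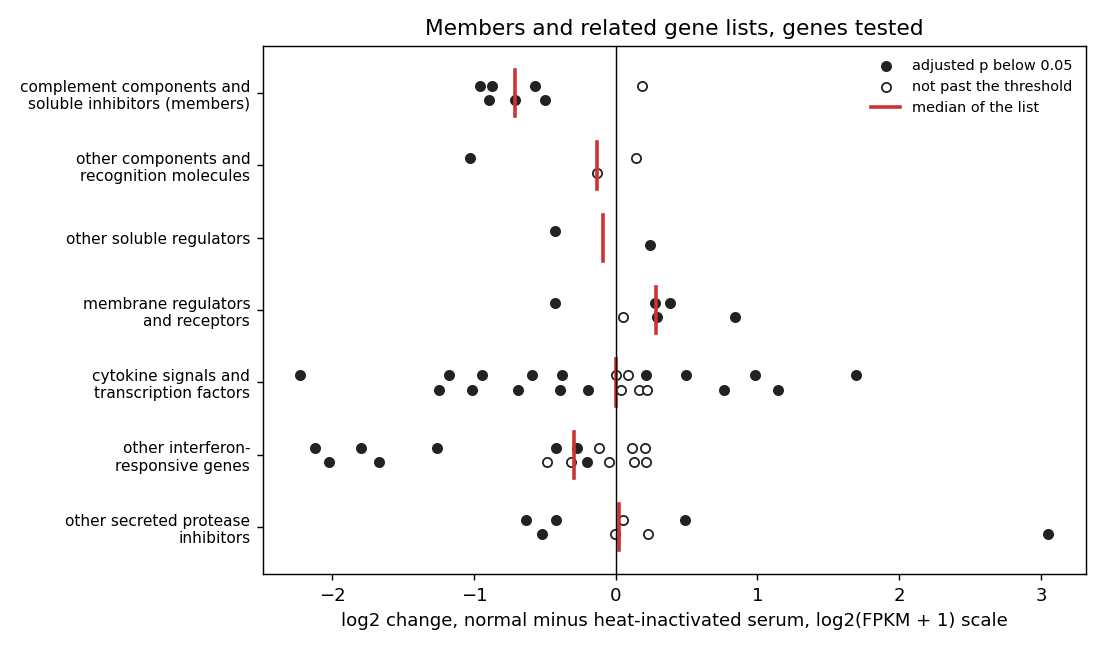
Log2 change of each tested gene in the complement list and in 6 related lists (filled where adjusted p was below 0.05, red bars for list medians). The complement list has its median at -0.71, the membrane regulators have theirs at 0.28 and the interferon-responsive genes at -0.29.

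The labelled cell type was checked against markers. Of 8 endothelial markers 6 had a mean over all libraries below 1 FPKM, among them CDH5 (listed at 0 in the control), KDR, TEK and TIE1. The other 2, PECAM1 (3.35 ± 0.288 to 7.95 ± 0.634 FPKM) and ESAM (2.63 ± 0.405 to 4.91 ± 0.220 FPKM), were tested and both rose (limma, adjusted p = 1.11e-04 and 0.00131). Among the 6 that were not tested, KDR was lower and VWF higher in every normal serum library than in any control. The groups overlapped for CDH5, TEK, TIE1 and CLDN5. The endothelial markers summed to between 6.33 and 7.40 FPKM in the control and 13.5 and 15.3 FPKM in normal serum. Fibroblast and mural markers were abundant, and all 7 found were lower in normal serum, where 26.1% of all genes tested were lower. Their sums ran from 5911 to 6416 FPKM in the control and from 2991 to 3140 FPKM in normal serum. Most of each sum came from COL1A1 (3870 ± 236 to 2026 ± 92.8 FPKM) and COL3A1 (1888 ± 100 to 795 ± 75.0 FPKM). PDGFRA, PDGFRB, ACTA2 and RGS5 had control means between 21.0 and 50.8 FPKM. The part of the fibroblast and mural markers in the falls of the complement genes was not tested. The liver markers ALB, FGB and TTR summed to at most 0.157 FPKM in any library. Of the macrophage markers AIF1 was at 0 in all libraries, PTPRC and CSF1R had means below 1 FPKM, and the sum lay between 8.12 and 10.1 FPKM in the control and 9.21 and 10.7 FPKM in normal serum. Pigment epithelium markers other than PMEL had means over all libraries below 1 FPKM. With PMEL, which made up most of it, the sum lay between 37.0 and 41.5 FPKM in the control and 36.3 and 43.7 FPKM in normal serum.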

How the data were processed

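Polyadenylated RNA of 3 heat-inactivated serum and 3 normal serum libraries was grouped by title. The submitters' processing notes name TopHat2 (2.0.7), Cufflinks (2.1.1) and Cuffdiff (2.1.1). Genome build and strand setting are not given in the sources used here. For 44605 transcripts the authors deposited FPKM in each library, with a p-value, a q-value and a log2 fold change of their own. The authors divided fragments among transcripts of a gene, so single transcripts are less certain than their sum.

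FPKM was summed by symbol (a gene name table supplied symbols for 256 of 7008 unnamed identifiers). Since FPKM are not counts, limma 3.58.1 (R 4.3.3) was run on log2(FPKM + 1) of the 11818 genes averaging 1 FPKM or more (trended empirical Bayes, Benjamini-Hochberg adjustment over all genes, threshold 0.05). This scale makes the changes of low genes look smaller. The procedure was tested on simulated data, with recovery required only of changes larger than those of the complement genes. Fragment numbers were read in replicates 2 and 3 from the lowest values of single-transcript genes within 3% of the same length. In the replicate 1 libraries such values were not whole steps: the 10 lowest spread over 15.8% and 22.6%, against at most 0.959% in the others.

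The members and lists were chosen with earlier results of these data known. All members were named, and from each list up to 4 called genes with the smallest adjusted p. Not every item so chosen is reported here. Other genes named were chosen after their values were seen. Alternatives varied pseudocount, filter, scaling, variance model, transcripts and libraries. Rescaling on transcripts of at least 300 bases was added after seeing the data.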

Additional observations from a re-analysis of the deposited data

How the results depend on the processing

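Over 19 alternatives, 6 of the 7 complement genes kept direction and side of the threshold in each alternative in which they could be tested, and 125 of 131 values for the 7 genes did so. CFI and MASP1 could not be tested at a mean of at least 5 FPKM, which left 5 members. The other 6 values were all of CFI, whose log2 change was -0.36 after quantile normalization and -0.31 within replicates 2 and 3, and between -0.63 and -0.39 with 1 library left out. With 1 library left out of a treatment the fit pools the spread of both. The number of all genes called higher was 3291, and 1952 after rescaling to the same total FPKM or 2159 when that total was taken over transcripts of at least 300 bases. The log2 change of the summed members was -0.79, and -0.93 after rescaling and -0.97 after quantile normalization. The log2 difference of the ratio between treatments went from -0.09 to -0.34 for C1R to SERPING1, from -0.28 to -0.52 for C1S to SERPING1 and from -0.03 to 0.16 for C2 to C1S after quantile normalization. The last was -0.32 with only the highest transcript of each gene. CLU stood at -0.040 after quantile normalization. The cause of these shifts was not tested.

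Deviations of same-numbered libraries from their treatment means correlated at 0.193 for replicate 1, against 0.0333 and 0.00593 for the others. These values cannot settle whether the numbers pair the samples. With the number as a replicate block, 6775 genes passed, against 6381 without it, and CFI stood at -0.50 (limma, adjusted p = 0.0349). CFHR4 was then past the threshold no longer (adjusted p = 0.0505).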

Other observations

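Several complement genes below a mean of 1 FPKM, chosen after their values were seen, had separate groups but were not tested. Among the genes that were tested, groups did not overlap in 62.6%. Fragment numbers were not read for the low genes named here. C9, the pore-forming terminal component, stood at 0.190, 0.190 and 0.0727 FPKM in the control and 0.599, 0.530 and 0.985 FPKM in normal serum. C5AR2, a receptor for C5a, was at 0.0865, 0.0702 and 0 FPKM in the control and 0.317, 0.392 and 0.331 FPKM in normal serum. C5 was lower in normal serum (0.153 ± 0.0372 FPKM) than in the control (0.307 ± 0.0447 FPKM), as were the collectin gene COLEC10 (0.420 ± 0.0669 against 0.959 ± 0.0973 FPKM) and VTN, vitronectin, a plasma protein that binds terminal complexes (0.394 ± 0.222 against 1.07 ± 0.273 FPKM).

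The genes with patterns most like C1R over the 6 libraries, by the root mean square difference of log2(FPKM + 1) from the control mean, were PROS1 (0.0179), ACSS1 (0.0274) and EHD3 (0.0319) among 11817 compared. PROS1 encodes protein S, an anticoagulant that circulates partly bound to C4b-binding protein. It went from 45.2 ± 2.42 to 27.2 ± 0.506 FPKM. C1S ranked 846 by likeness to C1R, at a difference of 0.164. The genes most like C1S were VPS41 (0.0393), IDH1 (0.0566) and ZNF33A (0.0594), and C2 ranked 57 (0.0961). Those most like SERPING1 were SNAP23 (0.0314), GNA13 (0.0339) and KIAA0232 (0.0349). The libraries form 2 groups, so many genes that fell by like amounts have like patterns.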
